A study of Homo sapiens with 29 samples.

Results

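The genes described here are 10 well-known transcriptional targets of the tumour suppressor p53, TNFRSF10B, MDM2, CDKN1A, BAX, CCNG1, SESN1, ZMAT3, PPM1D, TIGAR and RRM2B, followed in human HEK293 cells after knockdown of the RNA-binding protein hnRNPA1 and in RNA recovered with hnRNPA1. They were chosen by name as known p53 targets, with earlier results of these data known. All 10 are among the 16382 genes of the siRNA table. In the 3 lists of hnRNPA1 windows, 22 of 16198 windows belong to them. HEK293 is a line derived from human embryonic kidney that was transformed with adenovirus DNA. The siRNA arm has 4 libraries of cells given control siRNA and 4 of cells given siRNA against hnRNPA1, here called the knockdown, all from total RNA of HEK293 cells. The labels name no second siRNA against hnRNPA1 and no rescue. In the other arm RNA was recovered from HEK293 cells without treatment by RNA immunoprecipitation (RIP) with hnRNPA1 antibody or normal IgG. That arm has 3 hnRNPA1 and 3 IgG libraries of total lysate, 4 and 4 of cytosol, and 4 and 3 of mitochondria, and was analysed as 1 list of windows per compartment. The labels do not say whether the libraries of a group are separate cultures. The p-values therefore measure only how these libraries differ among themselves, which may be technical.

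p53 is a transcription factor that is kept at a low level by the ubiquitin ligase MDM2 and is stabilised by DNA damage and other stress. It then binds response elements near its target genes, whose products halt the cell cycle, repair DNA, adjust metabolism or start apoptosis, and some of which, MDM2 and PPM1D among them, restrain p53 in turn. In HEK293 cells the adenoviral E1 proteins bind p53 and the retinoblastoma protein and blunt the p53 response. The state of the p53 protein was not measured in these libraries.

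MDM2 shows how such a target is wired, and its RNA has the highest signal value of the 10 genes in the whole-cell RIP list. It has an outer promoter and an inner one that lies in the first intron and carries the p53 elements. The 250 bases before each start are printed 5′ to 3′ from RefSeq (GRCh38.p14, plus strand), the outer one at chr12:68807922-68808171 and the inner one at chr12:68808767-68809016. Capitals mark a match to the p53 response element, a 10-base unit repeated without a spacer, over 20 bases with at most 2 mismatches. Only the stretch with the fewest mismatches in a window was marked. Letters in lower case are therefore not shown to hold no further element.
MDM2 outer promoter: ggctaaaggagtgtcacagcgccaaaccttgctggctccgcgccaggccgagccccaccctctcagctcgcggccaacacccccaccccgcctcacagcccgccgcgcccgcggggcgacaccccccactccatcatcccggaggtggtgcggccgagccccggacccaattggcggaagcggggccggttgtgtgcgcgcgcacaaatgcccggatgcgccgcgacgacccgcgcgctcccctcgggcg
MDM2 inner promoter: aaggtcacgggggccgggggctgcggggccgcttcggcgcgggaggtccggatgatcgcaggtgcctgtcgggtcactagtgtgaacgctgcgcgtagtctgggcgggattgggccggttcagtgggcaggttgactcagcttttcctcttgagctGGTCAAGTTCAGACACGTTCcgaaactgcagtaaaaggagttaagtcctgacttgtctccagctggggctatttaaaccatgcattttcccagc
The match begins 94 bases before the inner start, and the unit reads the same on both strands. RefSeq promoter windows (250 bases before to 50 after the start) were at hand for 8 of the 10 genes, 15 windows in all, and 2 of the 15 held a match, both of them overlapping windows of the inner MDM2 promoter. Of 35114 such windows over all genes, 0.649% held one. The p53 elements known for CDKN1A lie farther upstream than these windows reach, so that no match there says only that the letters are not in this window.

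The siRNA table gives normalised reads, that is, reads per gene scaled by the authors with 1 factor per library, from which 16614060 to 22063357 reads per library were estimated. HNRNPA1, the targeted gene, fell to 33.0% of its control level, from 19250 ± 841 to 6352 ± 778 normalised reads (SD, n = 4 each; limma adjusted p = 2.2e-06). Of 15267 genes tested, 252 passed an adjusted p under 0.05 by limma. All 8 markers listed for HEK293 and embryonic kidney were in the table, among them the neurofilament gene NEFL and the kidney progenitor gene EYA1. Their summed level was 11128.1 to 11987 normalised reads in control and 10415.8 to 11565.5 in knockdown libraries. VIM and NEFL, with control means of 8916 and 1716, made up most of this sum. PAX2, SIX2 and LHX1 had control means of only 10.28, 37.64 and 118.9, so the sum says little about them. Of the endothelial and lymphocyte markers, 1 of 6 and 1 of 7 were in the table, with sums of 15.9 to 26.6 and 8.9 to 12.2 in control and 8.7 to 18.7 and 8.5 to 11.9 in knockdown libraries. Of the fibroblast markers 4 of 7 were, with sums of 212.6 to 231.6 and 210.2 to 240.5, and no marker of any of these lists passed the test. The closest was EYA1, with a log2 fold change of -0.50 (limma adjusted p = 0.082).

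All 10 p53 targets passed the minimum of 10 normalised reads in at least 4 libraries and had a mean above the median of the genes tested. The first question was whether their RNA differed between knockdown and control cells. By limma, 1 of the 10 rose, TNFRSF10B, 0 fell, and 2 had an unadjusted p under 0.05, TNFRSF10B and CDKN1A. Over all genes tested 0.675% were called higher and 0.976% lower (1.65% in all), and 19.2% had an unadjusted p under 0.05. The median log2 fold change of the 10 genes was 0.07, against 0.00 over all genes tested, and 6 of the 10 lay above 0. The libraries of the groups did not overlap for 1 of the 10 genes, against 11.6% of all genes tested, or 5.69% with the knockdown higher.

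TNFRSF10B encodes death receptor 5, a cell-surface receptor for the ligand TRAIL that triggers apoptosis through caspases. In libraries 1 to 4 of each group its level was 1375, 1524, 1358 and 1360 normalised reads with control siRNA and 1814, 1717, 1668 and 1879 after knockdown. Every knockdown library stood above every control library, with control library 2 the highest of the controls. The mean went from 1404 ± 80.1 to 1770 ± 94.6 (SD, n = 4 each), a 1.26-fold difference with a 95% confidence interval of 1.13 to 1.40. On the log2 scale it was 0.33 with an SE of 0.07, and the limma adjusted p was 0.037. In bulk RNA a rise in the number of cells that express a gene and more RNA per cell cannot be told apart.

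The log2 fold change of TNFRSF10B kept its size when any 1 library was left out (0.30 to 0.37), but the call did not. Its adjusted p by limma was 0.103 without control library 1, 0.0761 without control library 3 and 0.121 without control library 4. Without knockdown libraries 1 to 4 in turn it was 0.0592, 0.0683, 0.0782 and 0.0653. The call held without control library 2, with an adjusted p of 0.0387. In fits of all 8 libraries it was also lost when values were scaled to the sum outside the mitochondrial chromosome (limma adjusted p = 0.0839) and without a variance trend (0.107).

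**Figure D1:**
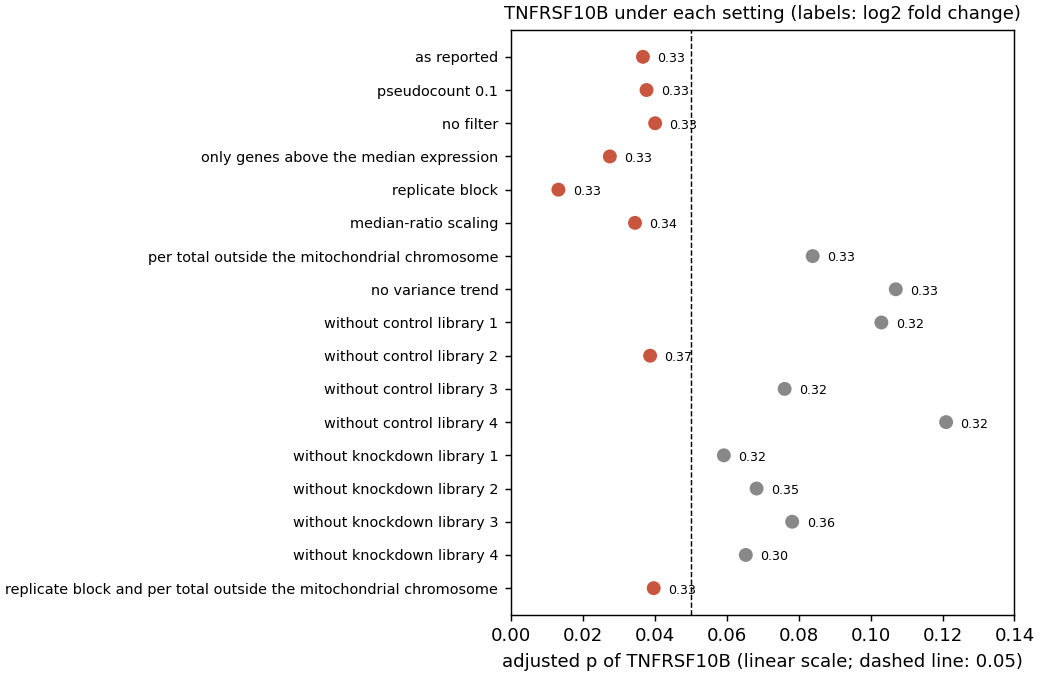
Adjusted p of TNFRSF10B (x axis, linear, dashed line at 0.05) in the fit as reported and under each alternative (y axis), with the log2 fold change printed beside each point and red marking values under 0.05. The fold change stays between 0.30 and 0.37 while the adjusted p runs from 0.0132 to 0.121.

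The other receptors for TRAIL in the list of p53 targets in apoptosis were read beside it, except TNFRSF10C, which is not in the siRNA table. TNFRSF10D, a decoy receptor without a working death domain, stood at 588.5, 672.5, 487.5 and 536.2 normalised reads with control siRNA and 751.3, 788.6, 733.8 and 631.6 after knockdown. Its groups overlapped only in that control library 2 exceeded knockdown library 4, and its log2 fold change of 0.35 did not pass (limma adjusted p = 0.10). TNFRSF10A, which encodes death receptor 4, had means of 321.9 ± 18.2 and 362.5 ± 38.6 (SD, n = 4 each; log2 fold change 0.17, limma adjusted p = 0.37). Whether the change of TNFRSF10B differed from those of its relatives was not tested.

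CDKN1A encodes p21, the inhibitor of cyclin-dependent kinases through which p53 halts the cell cycle. The control libraries held 839.4, 884.5, 654.4 and 651.7 normalised reads of it, and the knockdown libraries 801.9, 941.4, 864 and 921.4. Control libraries 3 and 4 stood below the other 6, while control libraries 1 and 2 lay within the range of the knockdown. The means of 757.5 ± 122 and 882.2 ± 62.8 (SD, n = 4 each) gave a log2 fold change of 0.23 with a 95% confidence interval of 0.00 to 0.46, which did not pass over all genes (unadjusted p = 0.048, limma adjusted p = 0.26).

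CCNG1, the cyclin G1 gene, whose product recruits a phosphatase to MDM2, was read at 9380, 7486, 7962 and 8372 normalised reads in control and 7871, 7390, 8333 and 7654 in knockdown libraries. Control libraries 1 and 4 exceeded all knockdown libraries, and control libraries 2 and 3 lay among them. The log2 fold change was -0.08 (95% confidence interval -0.26 to 0.10, limma adjusted p = 0.63), and -0.02 without control library 1.

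MDM2 and PPM1D close the feedback loop on p53: MDM2 marks p53 for degradation, and PPM1D (WIP1) is a phosphatase that reverses damage signalling to p53. MDM2 stood at 6343, 5618, 6401 and 5907 normalised reads with control siRNA and at 6905, 5691, 7795 and 7058 after knockdown. Knockdown libraries 1, 3 and 4 exceeded all controls and knockdown library 2 lay among the lowest of the 8. The log2 fold change of 0.17 did not pass (95% confidence interval -0.03 to 0.37, limma adjusted p = 0.35). It was 0.26 without knockdown library 2 and 0.11 without knockdown library 3, and neither passed. PPM1D stood at 1015, 1019, 875.7 and 949.1 in control and at 915.1, 912.8, 990.8 and 945.2 in knockdown libraries, so that the knockdown libraries lay within the range of the controls (log2 fold change -0.03, limma adjusted p = 0.84).

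**Figure D2:**
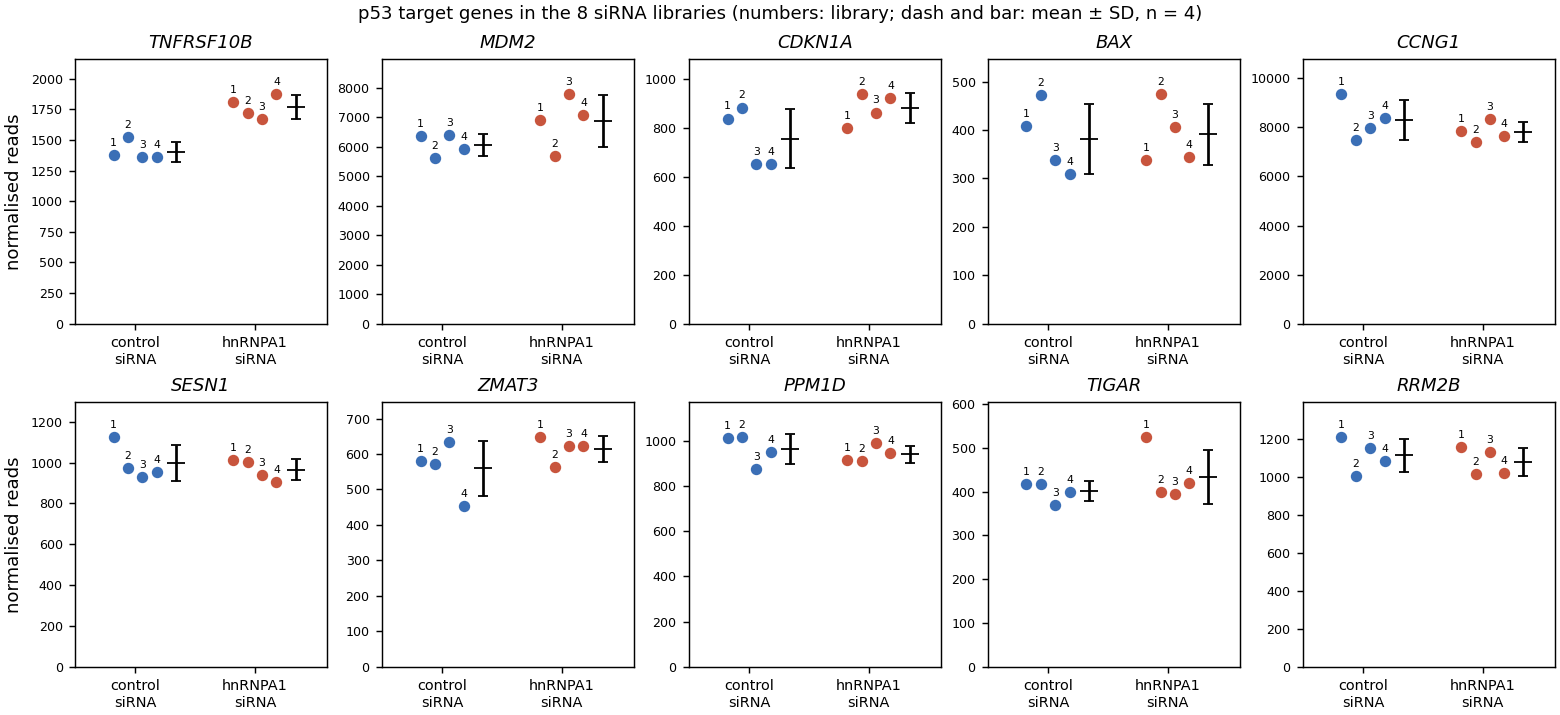
Normalised reads (y axis, linear, from 0, own scale per gene) of the 10 p53 target genes in each control (blue) and knockdown (red) library, numbered by library, with the mean ± SD of each group (n = 4). TNFRSF10B is the 1 gene whose groups do not overlap, with controls at 1358 to 1524 and knockdown libraries at 1668 to 1879.

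BAX, a pore-forming protein of the BCL-2 family that releases cytochrome c from mitochondria, was read at 407.4, 471.6, 338.4 and 309 normalised reads in control and at 338.4, 475.1, 405.2 and 345 in knockdown libraries. It had the widest spread of the 10 genes in both groups, with a coefficient of variation of 19.1% in control and 16.3% in knockdown libraries. The log2 fold change was 0.04 (95% confidence interval -0.26 to 0.34, limma adjusted p = 0.90), and it was -0.01, -0.05 and -0.06 without control library 3, control library 4 and knockdown library 2.

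ZMAT3, a zinc finger protein that binds RNA and acts in splicing and mRNA stability, stood at 579.6, 571.5, 633.8 and 452.4 normalised reads in control and at 648.9, 562.8, 622.2 and 621.9 in knockdown libraries. Control library 4 was the lowest of the 8 by a wide margin. The log2 fold change of 0.14 did not pass (95% confidence interval -0.07 to 0.36, limma adjusted p = 0.47), and it was 0.04 without control library 4.

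The remaining 3 genes act on metabolism and nucleotides. TIGAR, a phosphatase that lowers fructose-2,6-bisphosphate and turns sugar toward the pentose phosphate pathway, was read at 416.4, 418.3, 369.8 and 398.9 normalised reads in control and at 525.3, 398.8, 393.3 and 418.5 in knockdown libraries. Knockdown library 1 stood alone above the rest, and without it the log2 fold change went from 0.11 to 0.01 (limma adjusted p = 0.61 with all 8 libraries). SESN1, a sestrin that restrains mTORC1 and oxidative stress, was read at 1127, 974.4, 930 and 955.9 in control and at 1015, 1004, 938.9 and 906.3 in knockdown libraries (log2 fold change -0.04, limma adjusted p = 0.81). RRM2B, the p53-inducible subunit of ribonucleotide reductase that supplies deoxynucleotides for repair and for mitochondrial DNA, was read at 1210, 1003, 1149 and 1083 in control and at 1154, 1014, 1128 and 1017 in knockdown libraries (log2 fold change -0.04, limma adjusted p = 0.81). In SESN1 and RRM2B the knockdown libraries overlapped the controls, and control library 1 was the highest of the 8.

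For the 9 genes that were not called, the 95% confidence intervals of the fold change lay between 0.83 and 1.37. The p-values that missed the threshold do not show that these RNAs were equal in the groups.

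**Figure D3:**
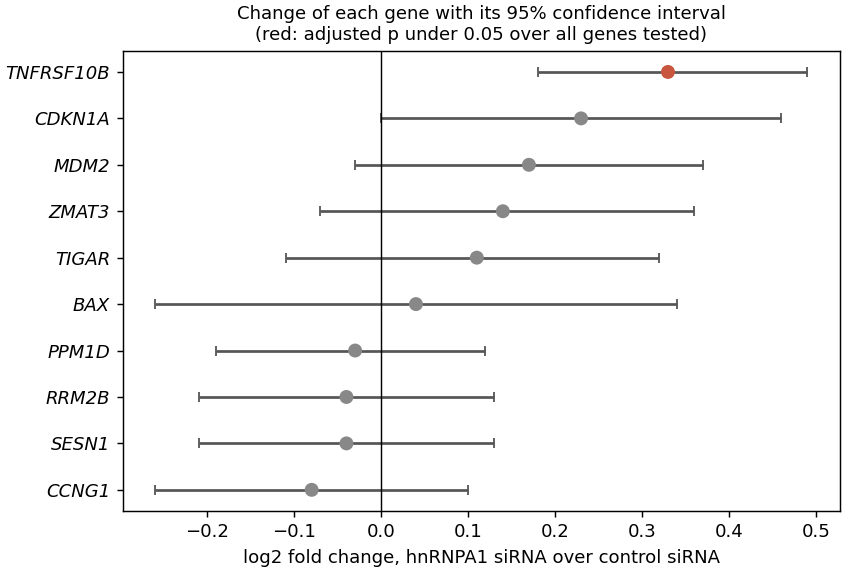
log2 fold change of each p53 target gene, knockdown over control (x axis, 0 marks no difference), with its 95% confidence interval from the limma fit (n = 4 per group), red where the adjusted p over all genes tested is under 0.05. TNFRSF10B at 0.33 is the 1 red point, and CDKN1A at 0.23 has an interval that reaches from 0.00 to 0.46.

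In each of the 8 libraries some of the 10 genes stood above their own mean and others below it. Whether the genes moved together was not tested. Relative to each gene's mean over the 8 libraries on the log2 scale, the mean deviation was 0.06, 0.00, -0.09 and -0.14 for controls 1 to 4, and 0.07, 0.01, 0.06 and 0.02 for knockdown libraries 1 to 4. Control libraries 3 and 4 were thus the lowest, each holding the lowest value of 3 genes, and control library 1 held the highest value of 3. Within groups the coefficient of variation ran from 5.6% (TIGAR) to 19.1% (BAX) in control and from 3.86% (PPM1D) to 16.3% (BAX) in knockdown libraries, and it was smaller in the knockdown for 8 of the 10 genes.

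By RefSeq 7 of the 10 genes overlap another gene, among them TNFRSF10B (RHOBTB2 and TNFRSF10B-AS1), MDM2 (CPM) and CDKN1A (DINOL). The kit marks strand, but whether counting used it was not given in the sources used here, and reads in the shared stretches may belong to the partner. Only BAX, ZMAT3 and RRM2B overlap no other gene there.

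The rest of the pathway was read from 6 lists of 113 genes, of which 108 were tested. By limma 0 of the 108 rose and 1 fell, CCNG2, while 27 had an unadjusted p under 0.05. Over all genes tested the shares were 0.675% higher, 0.976% lower and 19.2% with an unadjusted p under 0.05. CCNG2 encodes cyclin G2, a relative of CCNG1 that slows the cell cycle and is also a known target of FOXO factors. It was read at 543.2, 475, 583.1 and 501.5 normalised reads with control siRNA and 372.9, 337.1, 373.7 and 372 after knockdown. All knockdown libraries stood below all controls, and the mean fell from 525.7 ± 47.5 to 363.9 ± 17.9 (SD, n = 4 each; log2 fold change -0.53, SE 0.09, limma adjusted p = 0.010). The call held with any 1 library left out (adjusted p of at most 0.0467) and was lost without a variance trend (0.0551).

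Other p53 targets were spread over both directions. Of 62 tested in 4 lists, 34 had a positive log2 fold change, with a median of 0.02. In the list of cell cycle arrest 1 of 13 fell (CCNG2), and the genes next to it by p were TP53INP1 (log2 fold change -0.27, limma adjusted p = 0.16) and PHLDA1 (-0.32, adjusted p = 0.18). The list's median was -0.01. Among 18 apoptosis and death receptor genes none was called by limma and 5 had an unadjusted p under 0.05, against 19.2% of all genes tested. BID, which links death receptors to mitochondria, stood at -0.38 (limma adjusted p = 0.070), TNFRSF10D at 0.35 and FAS, a death receptor, at -0.31 (adjusted p = 0.13), with a median of -0.03 over the list. TNFRSF10B and FAS, both death receptors, thus had fold changes of opposite sign.

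Of 6 DNA repair genes none was called by limma, and 0 had an unadjusted p under 0.05. XPC, the damage sensor of nucleotide excision repair, stood at 0.15, and PCNA, the sliding clamp of replication and repair, at -0.13. Of 25 genes of metabolism, redox and growth signals none was called and 4 had an unadjusted p under 0.05, against 19.2% of all genes tested. GLS2, a glutaminase, stood at 0.45 (limma adjusted p = 0.13), FDXR, ferredoxin reductase, at 0.36 (adjusted p = 0.16) and SESN2, the relative of SESN1, at 0.41 (adjusted p = 0.23). SESN2 was read at 898.5, 854.5, 1065 and 1133 normalised reads in control and at 844, 1442, 1298 and 1821 in knockdown libraries, where library 1 was the lowest of the 8 and the rest exceeded all controls. Its value rested on single libraries: without knockdown library 1 the log2 fold change was 0.62 and passed (limma adjusted p = 0.0375), and without knockdown library 4 it was 0.25 (adjusted p = 0.427). SESN2 is also a known target of ATF4 in the integrated stress response.

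Among 24 tested genes of the list on p53 regulation none was called by limma. An unadjusted p under 0.05 was seen for 9, against 19.2% of all genes tested, and the median log2 fold change was 0.10. MDM4, the partner of MDM2 in holding p53 in check, stood at 0.08 (adjusted p = 0.78). DAXX, a chaperone of histones that binds MDM2, stood at 0.33 (adjusted p = 0.064), ATM, the kinase that signals double-strand breaks to p53, at -0.24 (adjusted p = 0.10) and KAT5, an acetyltransferase, at 0.28 (adjusted p = 0.13). The groups did not overlap for 6 of the 24 genes, DAXX, ATM and KAT5 among them, against 11.6% of all genes tested. DAXX passed in a fit of only the genes above the median expression (limma adjusted p = 0.0472).

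Genes that p53 can lower through p21 and the DREAM complex, most of them cell cycle genes, form the last list. Whether their changes reflect p53 in these cells was not tested, and the signs of such genes need not be independent. Of 22 tested none was called by limma, and 5 had an unadjusted p under 0.05, all of them higher. Over all genes tested 19.2% had one, in either direction. A positive log2 fold change was found for 18 of the 22 (81.8%), against 50.8% of all genes tested. The median was 0.11. AURKB, a mitotic kinase, stood at 1204, 1286, 1148 and 1254 normalised reads in control and at 1324, 1732, 1572 and 1629 in knockdown libraries (log2 fold change 0.35, limma adjusted p = 0.059). AURKB was among 4 of the 22 genes whose groups did not overlap, against 11.6% of all genes tested. It passed without knockdown library 1 (log2 fold change 0.43, limma adjusted p = 0.0174) and in a fit of only the genes above the median expression (adjusted p = 0.0455). FOXM1, a transcription factor of mitotic genes, stood at 0.28 (adjusted p = 0.095) and MCM5, a subunit of the replicative helicase, at 0.26 (adjusted p = 0.12).

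**Figure D4:**
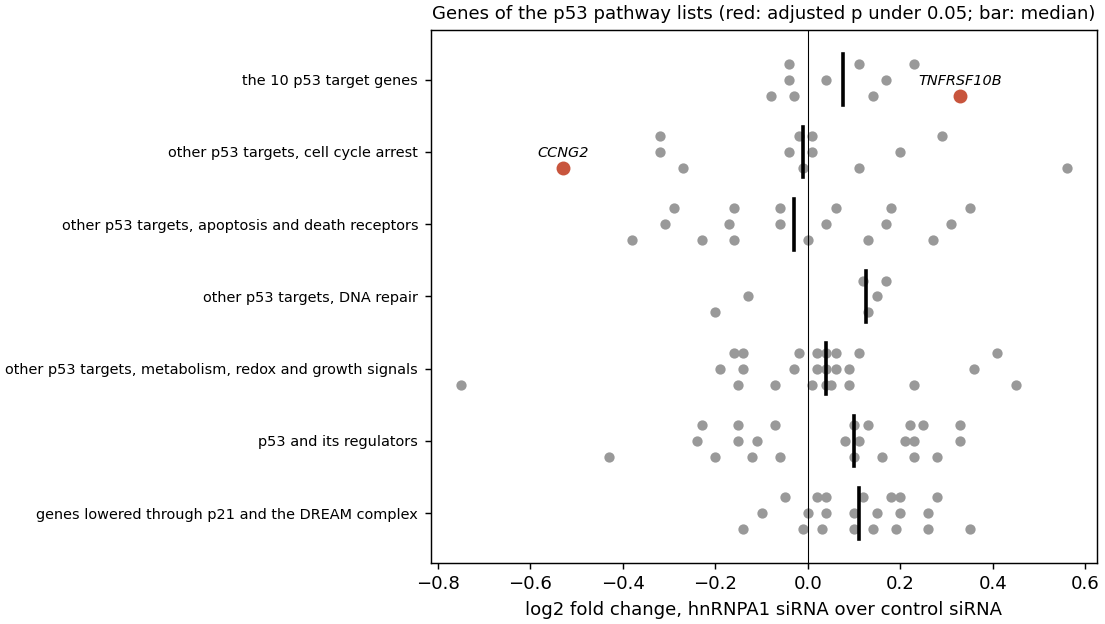
log2 fold change, knockdown over control (x axis), of each tested gene in the 10 p53 target genes and in the 6 lists of pathway genes (rows), with a bar at each median and red for genes with an adjusted p under 0.05. TNFRSF10B at 0.33 and CCNG2 at -0.53 are the 2 red points.

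The RIP arm lists RNA recovered with hnRNPA1 from total lysate, cytosol and mitochondria. The lists do not show how pure these fractions were, so a window does not by itself place the RNA in that compartment. A gene without a window may only have missed the authors' threshold. Each list gives windows of 500 bases with the authors' own signal value, p and q. The scale of that value was not given in the sources used here. It is read only within a list, and there is no value per library from which a spread could be taken. In the authors' deposited lists 9 of the 10 genes have a window in at least 1 list, against 42.9% of all genes tested in the siRNA arm. For the 3 lists together the share among genes with a mean above the median was not taken. It cannot be below that of the whole-cell list alone. In the whole-cell list 8 of the 10 have one, against 39.2% of all genes tested and 62.6% of those with a mean above the median, to which all 10 belong. The cytosolic list holds 2 of the 10 (5.17% of all genes tested and 7.60% of those above the median) and the mitochondrial list 3 (6.39% and 10.7%). None of the 10 has a window in all 3 lists, 4 have windows in 2 and 5 in 1. CDKN1A is the 1 gene with no window. TNFRSF10B, the gene that rose, has windows in the cytosolic and mitochondrial lists and none in the whole-cell list.

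Coordinates follow the lists, whose genome build and counting of positions were not given in the sources used here. MDM2 has 4 windows in the authors' deposited whole-cell list. The highest by signal value, at 2.17 (place 721 of 13007), spans 68808177 to 68808677 on chromosome 12, plus strand, and is the most upstream of the 4. The other 3 lie 32500 to 35500 bases downstream and are among the lowest of that list, with signal values of 0.86, 0.83 and 0.70. The mitochondrial list holds a window of MDM2 at 68825677 to 68826177, with a signal value of 1.59 (place 283 of 1672) and a q of 3.499e-06. It starts 17500 bases from the most upstream whole-cell window and shares no base with any of the 4.

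CCNG1 has 3 windows in the authors' deposited whole-cell list and 2 in the mitochondrial list. On chromosome 5, plus strand, the whole-cell windows start at 163439069, 163441069 and 163444569, and their signal values are lower the farther downstream they lie, at 1.32, 1.08 and 0.73. The mitochondrial windows start at 163444069 and 163444569, at 1.08 and 1.18. The last window of each list is thus the same stretch, 163444569 to 163445069, and it is the 1 window of the 10 genes that is shared between lists.

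PPM1D has 3 windows in the authors' deposited whole-cell list, on chromosome 17, plus strand. The first, at 60600183 to 60600683, has a signal value of 1.29, and the others start 64000 and 65500 bases downstream, at 1.27 and 1.14. Of the genes tested with a whole-cell window, 22.7% have 3 or more, and the median is 1. TIGAR has 2 windows in that list, starting at 4354263 and 4355763 on chromosome 12, plus strand, with signal values of 0.98 and 1.91. The second of these stands at place 1330 of 13007 and is, after the upstream window of MDM2, the highest of the 10 genes.

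RRM2B has 1 window in each of 2 of the authors' deposited lists, on chromosome 8, minus strand. The whole-cell window, at 102204502 to 102205002, has a signal value of 1.36. The cytosolic window, at 102237502 to 102238002, has a signal value of 1.19 and starts 33000 bases away, upstream of the whole-cell window on that strand. TNFRSF10B, also on chromosome 8, minus strand, has a cytosolic window at 23024133 to 23024633 (signal value 1.23, q = 0.0482) and a mitochondrial one at 23021633 to 23022133 (0.91, q = 0.02232), which start 2500 bases apart. The q of the cytosolic window is close to the 0.05 under which all q-values of the lists lie, and the mitochondrial one stands at place 1487 of 1672 by signal value.

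SESN1, BAX and ZMAT3 have 1 window each in the authors' deposited whole-cell list and none in the others. Their signal values are 1.28 for SESN1 (chromosome 6, 109094437 to 109094937, minus strand), 1.17 for BAX (chromosome 19, 48956815 to 48957315, plus strand) and 0.91 for ZMAT3 (chromosome 3, 179021621 to 179022121, minus strand). Of the 16 whole-cell windows of the 10 genes, 7 lie above the list's median signal value of 1.22 and 9 at or below it. No window of the 10 genes comes near the highest value of its list, which is 4.68, 2.90 and 4.15 in the whole-cell, cytosolic and mitochondrial lists.

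**Figure D5:**
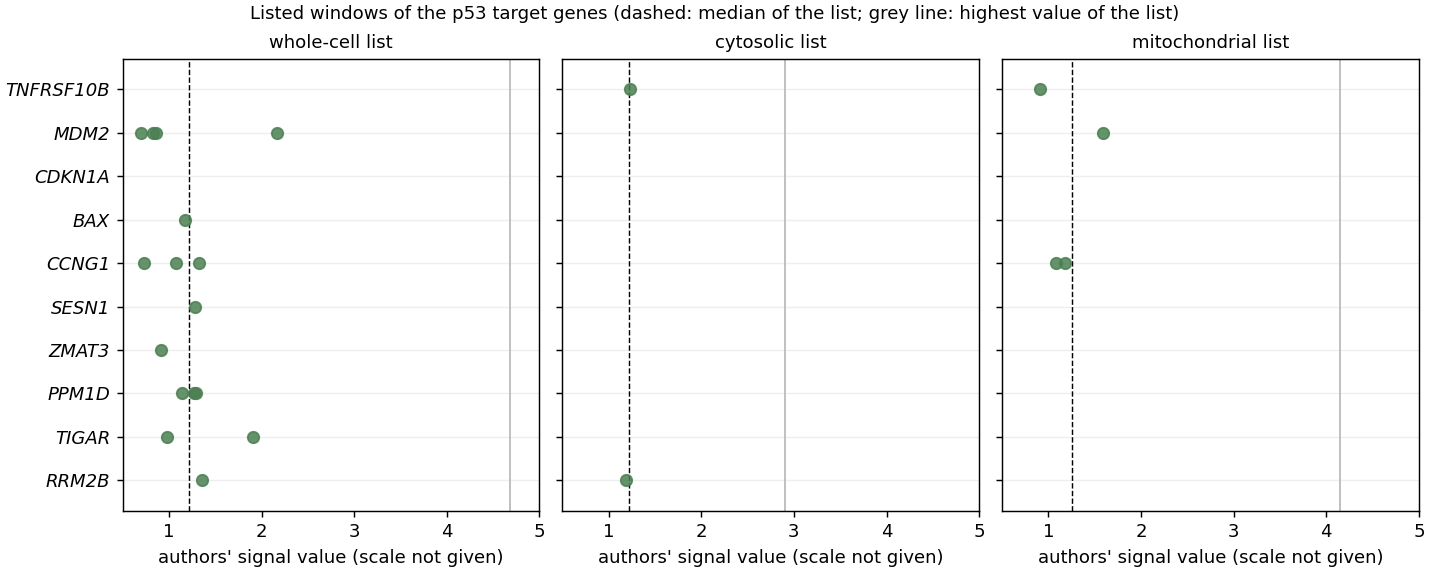
Authors' signal value (x axis, scale not given, not comparable between panels) of each listed window of the 10 p53 target genes (rows) in the whole-cell, cytosolic and mitochondrial lists, with dashed lines at the median and grey lines at the highest value of each list. Windows of MDM2 at 2.17 and TIGAR at 1.91 stand highest in the whole-cell list, and CDKN1A has none in any list.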

How the data were processed

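The members and lists were chosen with earlier results of these data known. Libraries were made with a stranded total RNA kit, per the labels' protocols, and the RIP RNA is called degraded there. For the siRNA arm the authors deposited a scaled, non-negative signal per gene and library. Partek, STAR 2.7.8a, DESeq2 and hg38 are named in the submitters' processing notes, with no role or order. Between 82.3% and 84.0% of values under 100 were whole multiples of 1 step per library (tolerance 0.02), so no count test was used, and the step gave the estimated reads. For each window the authors deposited a signal value, a p-value and a q-value. The background library, the caller's version and the build were not given in the sources used here.

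Genes with at least 10 normalised reads in at least 4 libraries were tested with limma 3.58.1 in R 4.3.3 on log2(value + 1), with a variance trend and Benjamini-Hochberg adjustment over 15267 genes, a fit tested on simulated data. Fold changes are on that scale and understate those of low genes. The design had foreseen this test for normalised values. Gene IDs were matched to symbols by Ensembl ID. Named genes are the 10 targets, HNRNPA1, MDM4, and in each list those called and the 3 of smallest p, of which some are not reported here; TNFRSF10A, NEFL, EYA1 and genes of the closing section beyond these were named after their values were seen. The fit was repeated with a pseudocount of 0.1, without the filter, on genes above the median expression, with a replicate block, other scalings, no variance trend, each library left out and, for windows, with a q of at most 0.005, the median signal value and other overlap rules. Figures were drawn with matplotlib 3.10.9.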

Additional observations from a re-analysis of the deposited data

Results flagged for a closer look

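In groups of 4 libraries, a value was looked at again when its gap to the nearest of the others, divided by the range of the group, exceeded Dixon's 95% critical value. Of 62 groups (31 named genes in 2 groups each) 4 did so, where chance flags about 1 in 20. TNFRSF10B in control library 2 stood at 1524 normalised reads, above the next at 1375, on the side of the knockdown libraries, and without it the log2 fold change was 0.37. CCNG2 in knockdown library 2 stood lowest at 337.1, below the next at 372. PHLDA1 in control library 3 stood highest at 142.5, above the next at 117.1. KAT5 in knockdown library 2 stood highest at 517.5, above the next at 437.5.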

How the results depend on the processing

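The count of called p53 targets was 0 in place of 1 with values scaled to the sum outside the mitochondrial chromosome and without a variance trend, and ranged from 0 to 1 with 1 library left out. The pathway lists had 1 call, against 3 among genes above the median expression, 0 without a variance trend, and 1 to 3 with 1 library left out. Over all genes the count of 252 became 90 with that scaling and 48 without a variance trend, and ranged from 61 to 254 with 1 library left out. With the replicate number as a block TNFRSF10B remained the 1 called target (limma adjusted p = 0.0132). In that fit 15 pathway genes (11 higher and 4 lower) and 1191 of all genes passed (7.8%, and 3.96% higher). Among the 11 were AURKB, DAXX, TNFRSF10D and SESN2, at limma adjusted p of 0.0129, 0.0132, 0.0194 and 0.0443. Among the 4 were CCNG2 and BID, at 0.00245 and 0.015. With the block and that scaling together, an alternative chosen after seeing the data, the pathway count was 6 and that of all genes 464. The numbers are not shown to pair the libraries: over all genes tested, deviations of same-numbered libraries from their group means correlated at 0.12, 0.29, 0.04 and 0.23, and control library 3 correlated more with knockdown library 4 (0.25) than with its own number. Over genes above the median expression the 4 values were 0.19, 0.59, 0.20 and 0.56. Libraries of different number were related there too. Control library 3 correlated at 0.38 with knockdown library 4 and at -0.52 with knockdown library 2, and control library 2 at -0.43 with knockdown library 4. The fit without a block leaves such shared structure in the spread, and its source was not tested. With 1 library left out, the log2 fold change of BAX ranged from -0.06 to 0.15, of SESN1 from -0.07 to 0.02 and of MDM4 from -0.01 to 0.19, so that their signs turned. The other 8 targets did not change sign in any alternative run, with RRM2B at -0.09 to -0.00 among them. The cause of these shifts was not tested. A q of at most 0.005 left 10 whole-cell, 0 cytosolic and 3 mitochondrial windows of the targets, and 7, 1 and 1 lay above the median signal value. Counting any window of a gene in both lists as shared gave 4 shared genes in place of 1 shared window. For the RIP libraries no depth is known.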

Other observations

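Windows of the other pathway genes are given here as counts, with no test of a difference between lists. In the authors' deposited whole-cell list 19 of 25 genes of the list on p53 regulation have a window, against 39.2% of all genes tested in the siRNA arm and 62.6% of those with a mean above the median. MDM4 has 6 windows there, with signal values up to 1.67, TRIM28 and SETD7 have 5 each, up to 2.04 and 1.33, and CDKN2A, which encodes the MDM2 inhibitor ARF, has 4, up to 1.97. In the cytosolic list 1 of the 25 has a window and in the mitochondrial list 2, against 5.17% and 6.39% of all genes tested.

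Of the other p53 targets, 2 of 14 genes of cell cycle arrest, 5 of 20 of apoptosis, 5 of 6 of DNA repair and 9 of 26 of metabolism and growth signals have a window in the authors' deposited whole-cell list. PERP, a membrane protein of apoptosis and cell contacts, has 1 with a signal value of 2.91, and PMAIP1, which encodes the BH3-only protein NOXA, has 2, up to 1.99, and 1 in the cytosolic list at 0.95. Of 22 genes lowered through p21 and DREAM, 16 have a whole-cell, 2 a cytosolic and 6 a mitochondrial window. The shares over all genes tested are 39.2%, 5.17% and 6.39%, and over those with a mean above the median 62.6%, 7.6% and 10.7%. The highest whole-cell value is that of CCNA2, the cyclin A gene, at 3.42.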
